A study of Mus musculus with 12 samples.

Results

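The control state of a primary neuronal culture was described from its 2 control arrays, out of 12 arrays in all. The cells were primary neurons of ICR (CD-1) mice, taken from the embryonic brain and grown in serum-free Neurobasal medium with the B27 supplement, L-glutamine, penicillin and streptomycin. In the other 10 arrays, 2 per drug, cultures received amitriptyline (5 µM), citalopram (10 µM), duloxetine (0.1 µM), imipramine (5 µM) or mirtazapine (50 µM) for 48 h from day 3 in vitro, and all groups share the day 5 harvest. The labels do not state what the control cultures received in place of a drug. The labels do not say whether the 2 control arrays came from separate cultures, so a p-value here reflects only how far these samples spread, and that spread may be technical. Labels name the whole embryonic brain and no region, so the culture can hold neurons of several regions along with glia and progenitors.

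A brain dissociated before birth yields young neurons that extend neurites and form first synapses within days of plating, together with radial glia, the progenitors from which neurons and later astrocytes and oligodendrocytes arise. Serum-free B27 medium is used because it favours neurons over dividing glia. Antidepressants act on monoamine transporters and on receptors for serotonin, noradrenaline, histamine and acetylcholine. The control arrays tell which of those genes gave signal in such a culture, harvested alongside the drug groups.

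Each array gave a log2 signal for 41345 probe sets, of which 23521 carry exactly 1 gene symbol and stand for 22180 genes; a gene with several probe sets was represented by the one of highest mean over the 12 arrays. The median gene had a mean control signal of 7.245, the 90th percentile lay at 10.1 and the 99th at 11.8. Because these values come without detection calls, 1394 olfactory and vomeronasal receptor genes, known from the nose, served as a reference, and a gene was said to lie above it where both control arrays exceeded the 95th percentile of that family on the same array (6.43 on replicate 1 and 6.40 on replicate 2). By this rule 13941 genes, 62.9% of all, lay above the reference. Probe sets differ in how strongly they respond to their transcript, so a rank describes signal and not the order of transcript abundance. The reference also has members with strong signal, up to Vmn1r233 at 11.275, and 60 of its 1394 genes exceeded the level.

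The 20 genes of strongest signal named here included cytoskeleton and growth cone genes, genes active in most cells and 1 radial glia gene. To reach 20 named genes, the first 37 were read, and 17 were passed over: 9 mitochondrial genes, 4 ribosomal protein genes and 4 predicted genes, clones or small RNAs. First among the 20 came Gnb1, a G protein beta subunit, at 13.32 on replicate 1 and 13.29 on replicate 2 (rank 4 of 22180). Fabp7, the brain lipid-binding protein of radial glia, stood at 13.20 and 13.22 (rank 7), and the beta tubulin gene Tubb5 at 13.17 and 13.22. Both arrays gave nearly the same value for each. Growth cone and microtubule genes followed: the collapsin response mediators Dpysl2 (13.10 and 13.15), Crmp1 (12.79 and 12.85) and Dpysl3 (12.80 and 12.83), the microtubule regulator Stmn2 (12.90 and 13.01) and the microtubule-associated protein gene Map1b (12.90 and 12.91). Membrane and signalling genes of neurons made up a further set, with Gpm6a at 13.14 on both arrays, Rtn3 at 13.11 and 13.22, Gnao1 at 12.89 and 12.90, Cd24a at 12.73 and 12.74, and the synaptic fusion protein gene Snap25 at 12.67 and 12.73. Eef1a1, Eef2, Ywhaz, Atp5b, Gapdh and the fatty acid desaturase gene Fads2, all active in most cells, ranked between 16 and 32. The list also holds Odf1, named for its protein in the sperm tail, at 12.74 and 12.80; a second probe set of the same gene read 5.69 and 5.52. Probe sets of other genes in the list disagreed too: second ones read 8.90 and 8.79 for Eef1a1, 8.78 and 8.80 for Dpysl3, 10.42 and 10.19 for Cd24a and 10.58 and 10.47 for Tubb5, and the lowest of 3 read 8.12 and 8.20 for Gapdh and 10.04 and 10.02 for Ywhaz. The rank of each rests on its probe set of highest signal.

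**Figure D1:**
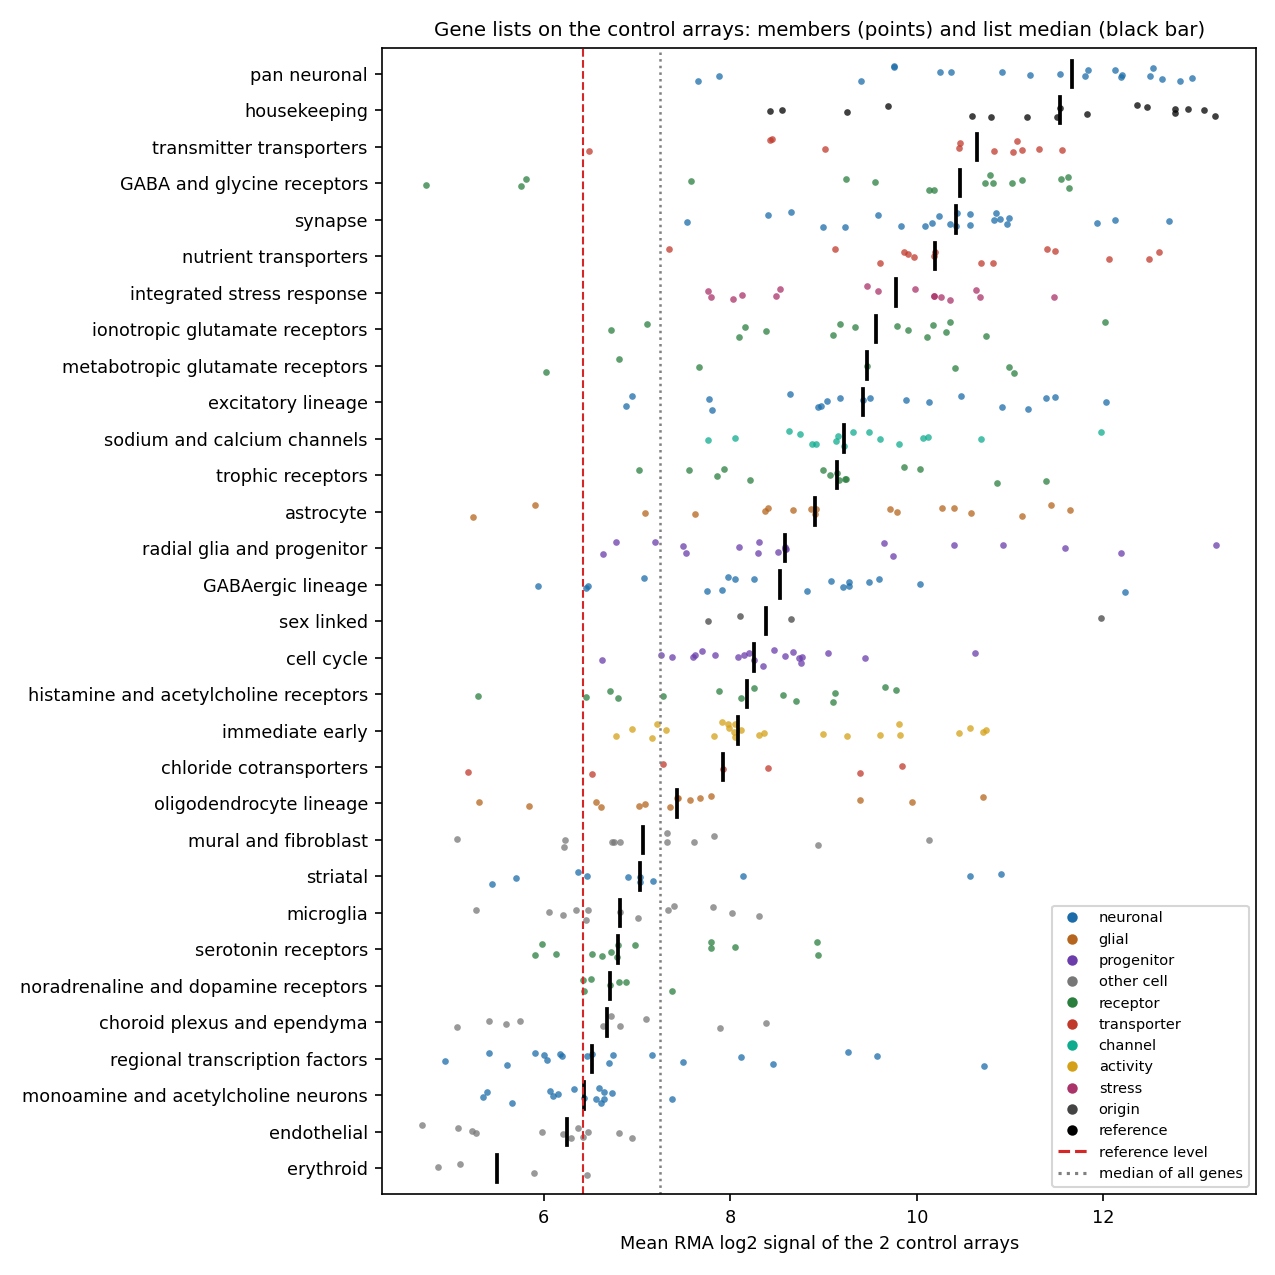
Mean RMA log2 signal of the 2 control arrays (x axis) for the measured members of 31 gene lists (points), sorted by list median (black bar). The dashed line marks the reference level and the dotted line the median of all genes at 7.245. Medians run from 11.67 for pan-neuronal genes to 5.50 for erythroid genes.

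Genes expressed by neurons of every kind lay near the top of the array. All 20 pan-neuronal genes exceeded the reference, against 62.9% of all genes. Their median was 11.67, and 15 of them ranked in the highest 10% of genes. Besides Stmn2 and Crmp1, the highest were the intermediate filament gene Ina (12.58 and 12.67), the adhesion molecule gene Ncam1 (12.54 and 12.53), neuronal tubulin Tubb3 (12.46 and 12.55) and the dendrite marker Map2 (12.21 and 12.20). The migration gene Dcx, which marks immature neurons, read 12.11 and 12.26. At the lower end stood the neurofilament gene Nefm (7.56 and 7.74), the RNA-binding protein gene Elavl4 (7.79 and 7.97) and Thy1 (9.29 and 9.52), whose levels increase in neurons after birth. The label of primary neurons was thus matched by the 15 general markers in the highest 10% of genes, while the others ranked lower. In bulk samples such as these, fewer cells of a type and less RNA per cell cannot be told apart.

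Synaptic genes were above the reference in 23 of 23 cases, against 62.9% of all genes, with a median of 10.43. Vesicle fusion and calcium sensor genes had the strongest signals: Snap25, Syt4 (12.04 and 12.21) and Syt1 (11.85 and 12.01). The vesicle phosphoprotein genes Syn3 (10.92 and 11.06) and Syn1 (10.93 and 11.00) were high too, and so was Nlgn2 (10.84 and 10.94), an adhesion molecule of inhibitory synapses. The lowest were Vamp1 (7.55 and 7.53), the active zone scaffold Bsn (8.43 and 8.38) and the postsynaptic scaffold Shank2 (8.66 and 8.65). No member lay below the median of all genes.

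Markers of forebrain glutamate neurons gave signal throughout the excitatory list: 19 of 19 genes exceeded the reference (median 9.42), against 62.9% of all genes. The transcription factors Mef2c (12.04 and 12.01), Lmo4 (11.44 and 11.53), Neurod6 (11.38 and 11.40), Fezf2 (11.21 and 11.17), Neurod2 (10.90 and 10.93) and Bcl11b (10.52 and 10.43) led it. Fezf2 and Bcl11b specify neurons of the deep cortical layers. Among vesicular glutamate transporters, Slc17a7 read 9.74 and 10.02, Slc17a6 read 9.00 and 8.87 and Slc17a8, found in a few neuron types, read 6.81 and 6.95. The other low members were Foxp2 (7.16 and 6.74) and Neurod1 (7.68 and 7.86).

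Inhibitory neuron genes were mixed, with 15 of 18 above the reference (83.3%, against 62.9% of all genes) and a median of 8.54. The neuropeptide gene Sst, which marks a class of interneurons, had the strongest signal of the list (12.25 and 12.21) and ranked in the top 1% of all genes. After it came the neuregulin receptor Erbb4 (9.96 and 10.10), the neuropeptide Npy (9.76 and 9.42), the calcium buffer Calb1 (9.35 and 9.63), Reln (9.18 and 9.37) and Dlx2 (9.16 and 9.38), a factor of the ganglionic eminences where interneurons are born. The enzymes that make GABA read 7.68 and 7.81 (Gad1) and 8.64 and 9.00 (Gad2). Pvalb, which marks an interneuron class that matures after birth, read 6.57 and 6.37, the interneuron transcription factor Sp8 6.36 and 6.54, and the neuropeptide gene Vip 5.93 and 5.94, none of them above the reference on both arrays. For the striatal list, 7 of 11 genes (63.6%) exceeded the reference, near the 62.9% of all genes. Its strongest were Meis2 (10.95 and 10.86) and Foxp1 (10.60 and 10.55), which are also expressed outside the striatum, while Ikzf1 (5.40 and 5.49), Ebf1 (5.62 and 5.78) and Pdyn (6.34 and 6.40) were not above it.

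Of the regional transcription factors, 11 of 19 exceeded the reference, near the 62.9% of all genes. The forebrain factors Lhx2 (10.66 and 10.79), Zbtb20 (9.74 and 9.41), Nr2f1 (9.17 and 9.35), Otx1 (8.55 and 8.36) and Emx2 (8.15 and 8.07) had the strongest signal, followed by the hippocampal gene Prox1 (7.57 and 7.41). Other forebrain factors were lower: Six3 read 6.80 and 6.69, and Nkx2-1 (6.10 and 6.29) and Otx2 (5.31 and 5.51) were below the reference. Posterior factors fell on both sides of it. Gbx2 (7.02 and 7.31, with 6.23 and 6.42 on a second probe set) and Pax5 (6.70 and 6.70) lay above it. So did En1 (6.53 and 6.51) and, narrowly, Hoxb3 (6.45 and 6.48). Hoxb4 (6.07 and 6.27), Hoxa2 (5.95 and 6.12) and En2 (6.02 and 5.98) lay below the reference. Pax2 (5.86 and 5.96), Hoxa3 (5.41 and 5.80) and Hoxc5 (5.09 and 4.80) were below it too. The count depends on the reference: at its 99th percentile 6 of 19 remained above it.

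Glial and progenitor genes were a second strong component beside the neurons. Of the astrocyte list, 16 of 18 genes exceeded the reference (median 8.91), and all 19 of radial glia did (median 8.59). Of all genes, 62.9% did. The extracellular protein gene Sparcl1 read 11.52 and 11.76, the glycolytic enzyme Aldoc 11.41 and 11.47, the glutamate transporter Slc1a3 10.99 and 11.27, and the glutamine synthetase gene Glul 10.36 and 10.44. The mature astrocyte filament gene Gfap read 8.89 and 8.85, at percentile 73.2 of all genes. Lowest were Gjb6 (5.23 and 5.24) and S100b (5.78 and 6.03), both below the reference on both arrays, and Cd44 (7.07 and 7.09). Several of the leading astrocyte genes, among them Slc1a3, Sox9 (10.23 and 10.31) and Aldoc, are also expressed by radial glia.

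Progenitor genes ranged widely in signal. After Fabp7 came the filament gene Vim (12.21 and 12.17), the receptor phosphatase Ptprz1 (11.47 and 11.70), the matrix protein Tnc (10.86 and 10.98), the stem cell factor Sox2 (10.35 and 10.45) and the Notch target Hes5 (9.72 and 9.76). The neurogenic factor Neurog1 (6.50 and 6.76) and Eomes (6.99 and 6.55), which marks intermediate progenitors of the cortex, were the lowest, followed by Hopx (7.16 and 7.22). Cell cycle genes gave signal throughout: 21 of 21 exceeded the reference (median 8.25), against 62.9% of all genes. Pcna, the replication clamp, read 10.74 and 10.51, Ccna2 9.51 and 9.38, Ccnb2 8.81 and 8.73, and the proliferation marker Mki67 8.77 and 8.71. Birc5, at 6.75 and 6.50, was the lowest.

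Oligodendrocyte lineage genes were led by 3 precursor genes, and the other members lay lower. Olig1 read 10.52 and 10.89, Olig2 9.69 and 10.20, and the precursor receptor Pdgfra 8.88 and 9.90. The myelin genes Mag (5.15 and 5.46) and Mobp (6.43 and 6.69) and the early differentiation gene Enpp6 (5.87 and 5.82) were not above the reference on both arrays. Between them, precursor and myelin genes had similar signal: Cspg4 read 7.50 and 7.85, Sox10 7.26 and 7.45 and Nkx2-2 6.91 and 7.25, beside Ugt8a (7.45 and 7.68), Cnp (7.36 and 7.51) and Mbp (7.41 and 7.45). In all, 12 of 15 (80.0%) exceeded the reference, against 62.9% of all genes, with a list median of 7.43.

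Markers of other cell types differed by list, from none above the reference to most, where 62.9% of all genes lay above it. Of 12 endothelial genes, 2 exceeded the reference, Cdh5 (6.87 and 7.01) and Pecam1 (6.86 and 6.75), while the vessel markers Cldn5 (6.21 and 6.38), Kdr (6.42 and 6.43), Tek (5.27 and 5.28) and Ly6c1 (4.93 and 4.46) did not. No erythroid gene of the 4 measured did, from Slc4a1 (6.43 and 6.49) down to Hbb-bh1 (4.80 and 4.93). For microglia the count was 7 of 13: Cd68 (8.52 and 8.10), C1qb (8.21 and 7.82) and Cx3cr1 (7.91 and 7.72) were the strongest, and P2ry12 (6.05 and 6.05), Itgam (6.32 and 6.10) and Ptprc (5.36 and 5.18) lay below. Among 12 genes of mural cells and fibroblasts, 9 exceeded the reference (median 7.07, close to 7.245 for all genes), led by Fn1 (10.09 and 10.17), which astroglia also make, and Dcn (9.16 and 8.71). Of 10 choroid plexus and ependyma genes, 6 (60.0%) exceeded the reference. Ttr was among them and differed between the arrays, at 7.88 and 8.89. Ccdc153 (7.88 and 7.90), Rsph1 (7.03 and 7.17), Aqp1 (6.75 and 6.88), Folr1 (6.79 and 6.66) and Foxj1 (6.59 and 6.67) were the others. Kl (5.81 and 5.68), Tmem212 (5.54 and 5.65), Otx2 and Clic6 (4.91 and 5.23) were below the reference. Both Xist, transcribed from the inactive X chromosome of females (12.04 and 11.92), and the Y-linked genes Eif2s3y (8.83 and 8.48), Kdm5d (8.23 and 7.98) and Uty (7.76 and 7.75) gave signal above the reference on both arrays.

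Receptor genes for glutamate and GABA ranked higher in signal than those for monoamines. All 16 ionotropic glutamate receptor genes exceeded the reference (median 9.56), against 62.9% of all genes. The AMPA receptor subunit Gria2, which limits calcium entry, led at 12.03 and 12.01, followed by the NMDA receptor subunit Grin2b (10.75 and 10.74), the embryonic form, and by Gria1 (10.32 and 10.40), Grik5 (10.35 and 10.28), Grik2 (10.27 and 10.08) and Gria4 (10.13 and 10.09). Grin2a, the NMDA subunit whose level grows after birth, read 8.40 and 8.37, and Grin3b (6.65 and 6.79), Grin2c (7.14 and 7.08) and Grin2d (8.08 and 8.11) were the lowest. Metabotropic receptors ran from Grm5 (11.00 and 11.08) and Grm3 (10.93 and 11.04) to Grm6 (6.04 and 6.01), a retinal receptor below the reference. Of the GABA and glycine receptor genes, 13 of 16 exceeded it (median 10.46), among them the GABA A subunits Gabra2 (11.62 and 11.65), Gabra5 (11.63 and 11.61) and Gabra3 (11.08 and 11.18), both GABA B subunits, Gabbr1 (11.57 and 11.52) and Gabbr2 (10.97 and 11.08), and Glra2 (10.85 and 10.72), the glycine receptor subunit of the embryo. The cerebellar subunit Gabra6 (4.60 and 4.88) and the adult glycine subunit Glra1 (5.65 and 5.86) lay below it.

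Serotonin receptors had a median of 6.79, and 11 of 14 (78.6%) exceeded the reference, against 62.9% of all genes. For the 7 catecholamine receptor genes measured, named below, the share was 71.4%. Among serotonin receptors the order of signal was as follows. The highest were Htr2a (8.71 and 9.18), Htr5a (8.88 and 8.97), Htr1b (7.89 and 8.20), Htr6 (7.77 and 7.82), Htr1a (7.64 and 7.95) and the ion channel subunit Htr3a (6.97 and 6.98). Htr2c, which mirtazapine blocks, stood just above the reference at 6.57 and 6.47, and Htr2b (5.56 and 6.25), Htr3b (6.04 and 5.92) and Htr1f (6.39 and 5.87) did not exceed it. Of these 14 genes, 5 stayed above the 99th percentile of the reference families. Of 14 catecholamine receptor genes 7 were measured, the other 7 were not analysed here, and 5 exceeded the reference: Drd5 was highest (7.41 and 7.34), then Adra2c (6.89 and 6.87), Drd2 (6.96 and 6.65), Drd1 (6.96 and 6.45) and Drd3 (6.51 and 6.50), and Adra1b (6.30 and 6.56) and Drd4 (6.31 and 6.54) did not pass it on both arrays. The histamine H1 receptor Hrh1, a target of tricyclics and mirtazapine, read 6.69 and 6.91, and the presynaptic histamine receptor Hrh3 read 8.95 and 9.29. Of the muscarinic receptors, which tricyclics block, Chrm1 read 8.69 and 8.45, Chrm3 8.28 and 8.23, and Chrm2 8.47 and 7.75. The nicotinic subunits Chrnb2 (9.77 and 9.79), Chrna7 (9.58 and 9.74), Chrna4 (9.09 and 9.12) and Chrna3 (8.74 and 8.67) were higher on the array's scale, and Hrh4 (5.36 and 5.22), a receptor of blood cells, was below the reference. Second probe sets read lower for Drd5 (6.31 and 6.08, below the reference), Hrh3 (7.49 and 7.87) and Chrm1 (6.64 and 6.74).

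The genes of the 3 plasma membrane monoamine transporters lay on both sides of the reference. The serotonin transporter gene Slc6a4 read 6.85 on replicate 1 and 6.37 on replicate 2, above the reference on the first array only. The noradrenaline transporter gene Slc6a2 was below it on both arrays (6.01 and 6.19), and the dopamine transporter gene Slc6a3 was above it on both (6.61 and 6.85). In the list of monoamine and acetylcholine neuron markers, 6 of 15 genes exceeded the reference, with a median of 6.44 and 14 genes below the median of all genes. Gata3 was highest (7.37 and 7.37, with 6.02 and 6.40 on a second probe set). The vesicular monoamine transporter Slc18a2 read 6.83 and 6.47 and the catecholamine enzyme Th 6.61 and 6.67. The serotonin enzyme gene Tph2 (6.17 and 5.97), the acetylcholine vesicle transporter Slc18a3 (5.74 and 5.58), the choline transporter Slc5a7 (5.21 and 5.48) and the histamine enzyme Hdc (5.25 and 5.53) were below it. With the 90th percentile of the reference families 12 of the 15 exceeded it, and with the 99th only 1 did, so the list spans the edge of what the array can tell from the reference.

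**Figure D2:**
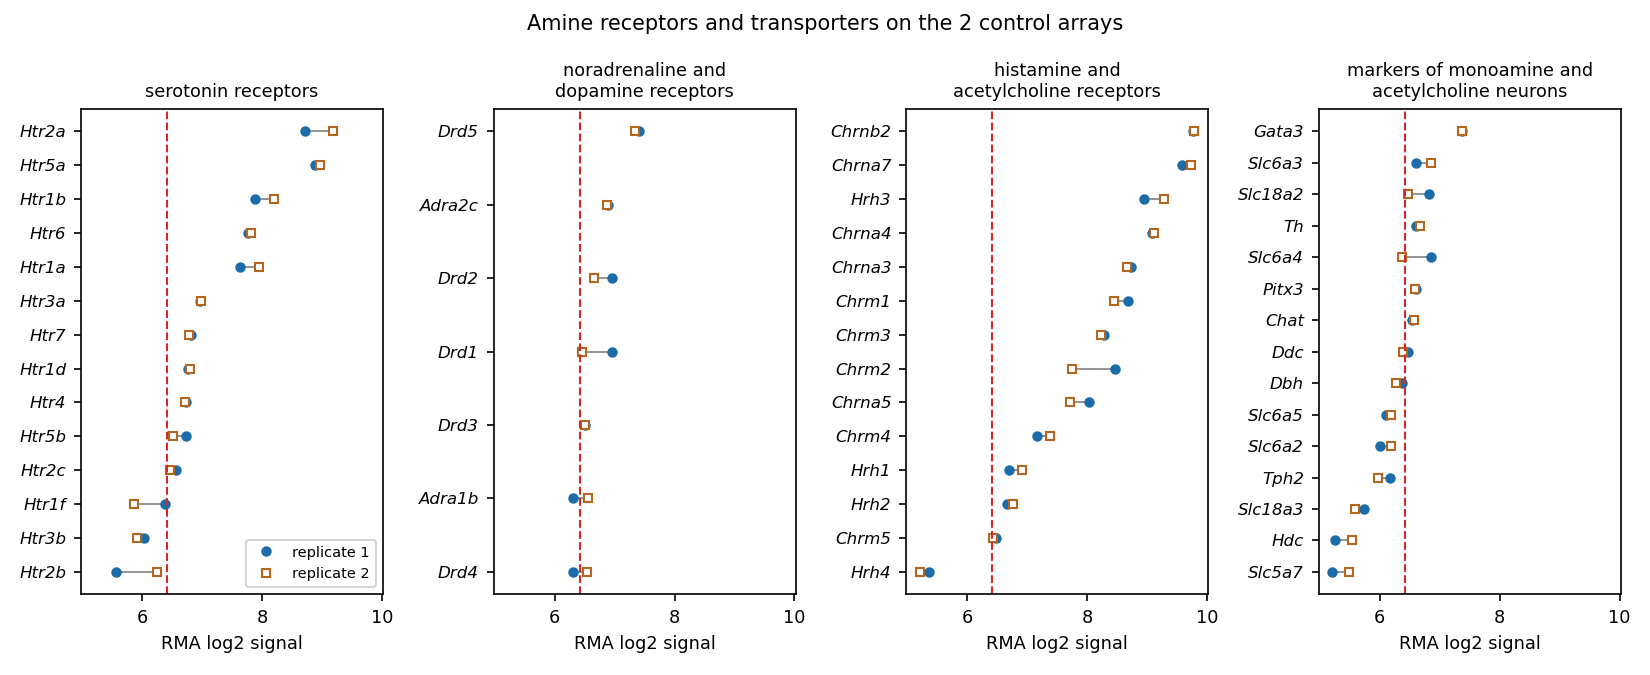
RMA log2 signal (x axis) of receptors for serotonin, noradrenaline, dopamine, histamine and acetylcholine and of markers of monoamine and acetylcholine neurons, for control replicate 1 (filled circles) and replicate 2 (open squares). The dashed line is the reference level. Slc6a4 lies across it (6.85 and 6.37) and Slc6a2 below it (6.01 and 6.19), while Htr2a stands at 8.71 and 9.18.

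Other transporters were strong. All 12 carriers of transmitters and related amino acids exceeded the reference (median 10.65), against 62.9% of all genes. Among them were the neutral amino acid carrier Slc1a4 (11.43 and 11.68), the GABA carrier of astrocytes Slc6a11 (11.26 and 11.35), the low-affinity monoamine carrier Slc29a4 (11.05 and 11.21), the neuronal glutamate carrier Slc1a1 (11.00 and 11.15), the taurine carrier Slc6a6 (11.03 and 11.04) and the creatine carrier Slc6a8 (10.77 and 10.89). Slc6a13 (6.51 and 6.45) was the lowest. Slc29a4 takes up serotonin and dopamine, and its signal ranked in the highest 10% of genes, unlike any of the 3 monoamine transporters above. Nutrient carriers were all above the reference, led by both chains of the large neutral amino acid transporter, Slc3a2 (12.55 and 12.65) and Slc7a5 (12.46 and 12.52). The neuronal glucose transporter Slc2a3 read 9.70 and 9.51 and the insulin-regulated Slc2a4 7.24 and 7.45. The chloride importer Slc12a2, which keeps chloride high in immature neurons, read 9.80 and 9.88, and the exporter Slc12a5, which makes GABA inhibitory as neurons mature, read 9.32 and 9.47; their probe sets differ, so no ratio between them was taken. All 17 sodium, calcium and pacemaker channel genes exceeded the reference, from Scn3b (12.04 and 11.92) to Scn1a (7.81 and 7.72), which is expressed mainly after birth. Receptors for trophic factors and corticosteroids did so as well, 15 of 15, with the BDNF receptor Ntrk2 at 11.32 and 11.46, the NT-3 receptor Ntrk3 at 10.96 and 10.76, the CNTF receptor Cntfr at 9.97 and 10.10, the glucocorticoid receptor Nr3c1 at 8.29 and 8.14 and Ngfr lowest at 7.13 and 6.91.

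The 17 housekeeping genes had a median of 11.53, from Tubb5 at the top to Tuba1b (8.28 and 8.56). The integrated stress response is the ATF4 programme that cells turn on when amino acids run short or proteins misfold. All 16 of its genes measured here exceeded the reference (median 9.78), against 62.9% of all genes. The asparagine synthetase gene Asns read 11.37 and 11.58, the serine synthesis gene Psat1 10.57 and 10.78, and Trib3 (7.75 and 7.76) was the lowest.

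MicroRNA genes are read on such an array through their precursor or host transcript and not as mature microRNAs. Of 472 genes with symbols starting Mir, 151 lay above the reference (32.0%, against 62.9% of all genes), with a median of 5.69. The highest 8 were Mir5099 (13.11 and 13.07), Mir449b (12.49 and 12.46), Mir692-1 (12.06 and 12.09), Mir9-2 (10.21 and 9.99), Mir5125 (10.21 and 9.86), Mir703 (9.92 and 9.89), Mir1195 (9.85 and 9.95) and Mir1956 (9.57 and 9.56). Mir9-2 belongs to the miR-9 family, which is known for its high level in neural progenitors and young neurons; its other copies Mir9-1 (8.90 and 8.92) and Mir9-3 (7.71 and 7.52) were above the reference too. Named after their values were seen, Mir181b-1 read 9.02 and 8.98, Mir99b 8.91 and 9.06, and the host gene Mir124-2hg, from which the neuronal miR-124 is cut, 9.10 and 8.89. All 3 Mir9 genes encode the same mature pair, and the sequences below, from RefSeq with GRCm38.p6, are shown because they are the products the brain-related precursors encode; capitals mark the seed, bases 2 to 8, which pairs with targets.
miR-9-5p: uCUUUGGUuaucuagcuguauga
miR-9-3p: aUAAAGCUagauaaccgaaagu
miR-181b-5p: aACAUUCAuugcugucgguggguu
miR-99b-5p: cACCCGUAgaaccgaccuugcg
No seed is shared among these 4. Mir9-2 lies on chromosome 13, Mir9-1 on chromosome 3 and Mir9-3 on chromosome 7, so the 3 signals come from different loci and their common product cannot be assigned to one of them.

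The 2 control arrays agreed closely in signal. Over 22180 genes Pearson's r was 0.995 and Spearman's rho 0.9951, both across genes, which are not independent replicates. The median absolute difference was 0.11 log2 units, 710 genes differed by at least 0.5 and 48 by at least 1. Differences shrank with signal: their SD fell from 0.284 for genes under 6 to 0.103 for genes at 11 or more, where 0 of 818 genes differed by 0.5. Over the 17467 genes kept for testing (mean over the 12 arrays at or above 5.72) the SD was 0.180, and 295 genes, 1.69%, differed by at least 0.5, 180 of them higher on replicate 1 and 115 on replicate 2. The same SD was 0.131 for the citalopram pair, 0.160 for imipramine, 0.163 for amitriptyline, 0.291 for mirtazapine and 0.347 for duloxetine. The control pair was therefore the fourth tightest of the 6, and wider than 3 of the drug pairs.

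**Figure D3:**
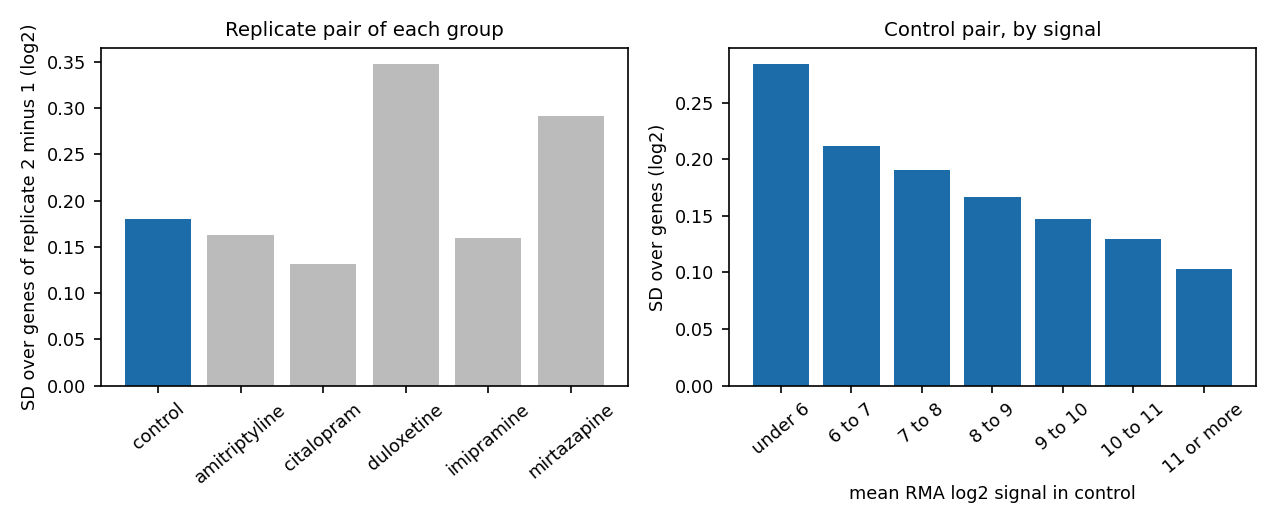
Left, SD over 17467 genes of the log2 difference between the 2 arrays of each group, with control in blue (0.180). Right, the SD of the control difference over all 22180 genes by mean control signal, from 0.284 under 6 to 0.103 at 11 or more.

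To ask whether any gene differed between the control arrays by more than replicates of the drug groups do, a linear model (limma, Benjamini-Hochberg adjustment over 17467 genes) took its spread from the 5 drug pairs. One gene passed, 0.00573% of those tested: Lilrb4a, an inhibitory receptor of macrophages and microglia, was 1.52 ± 0.13 (SE) log2 units lower on replicate 2 (6.89 and 5.37, a 2.87-fold difference, adjusted p = 0.0281). All 10 drug arrays lay between, from 5.93 to 6.61. Leaving out any array of amitriptyline, citalopram or imipramine ended that call, and so did no filter, a filter at the 50th percentile (6.65), which leaves the gene out, a trended prior and the replicate block. No gene passed in the other direction, and 550 genes, 3.15%, had an unadjusted p under 0.05. The 95% interval of the median gene's difference reached 0.409 to either side. In data simulated for this comparison over 17467 genes 61.2% of genes changed by 1 log2 unit were recovered and 2.99% of those changed by 0.5, so differences of 0.5 were mostly not detectable in this fit. Without duloxetine replicate 2 and mirtazapine replicate 2 the interval reached 0.267, and 1644 genes had an unadjusted p under 0.05, with Lilrb4a still the 1 call; without either duloxetine array alone it was 834 genes.

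Next in order of p on the side of replicate 1 were Pramel34 (6.54 and 5.13, adjusted p = 0.0715 by limma), Mid1, a ubiquitin ligase gene (10.08 and 9.19), the macrophage receptor Adgre1 (7.51 and 6.39), Minar2 (8.60 and 7.72), Srsy (7.46 and 5.91), Chrm2, Olfr1333 (6.78 and 5.90), Astx5 (7.37 and 5.79) and the chemokine Ccl3 (8.82 and 8.02). None of these passed. For Mid1, Adgre1 and Minar2 replicate 1 stood above all 10 drug arrays, whose highest values were 9.42, 6.74 and 7.69. On the side of replicate 2 were Gpr17 (7.25 and 8.34, adjusted p = 0.517 by limma), a receptor of committed oligodendrocyte precursors, the cysteine-producing enzyme gene Cth (7.38 and 8.39), the amino acid carrier Slc1a5 (8.02 and 8.84), the collagen chaperone Serpinh1 (8.39 and 9.01), the interferon-induced chemokine Cxcl10 (7.30 and 7.93), Map3k15 (6.31 and 6.94), the muscle myosin gene Myh2 (5.75 and 6.65), Glt8d2 (5.86 and 6.49), Rab39 (5.93 and 6.54) and the DNA methyltransferase Dnmt3b (6.45 and 6.99). Cth, Slc1a5 and Serpinh1 were lower on control replicate 1 than on every drug array, whose lowest values were 8.23, 8.40 and 8.91. A second Slc1a5 probe set, of lower signal, read 6.98 and 6.96 on the control arrays and so did not show the difference.

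**Figure D4:**
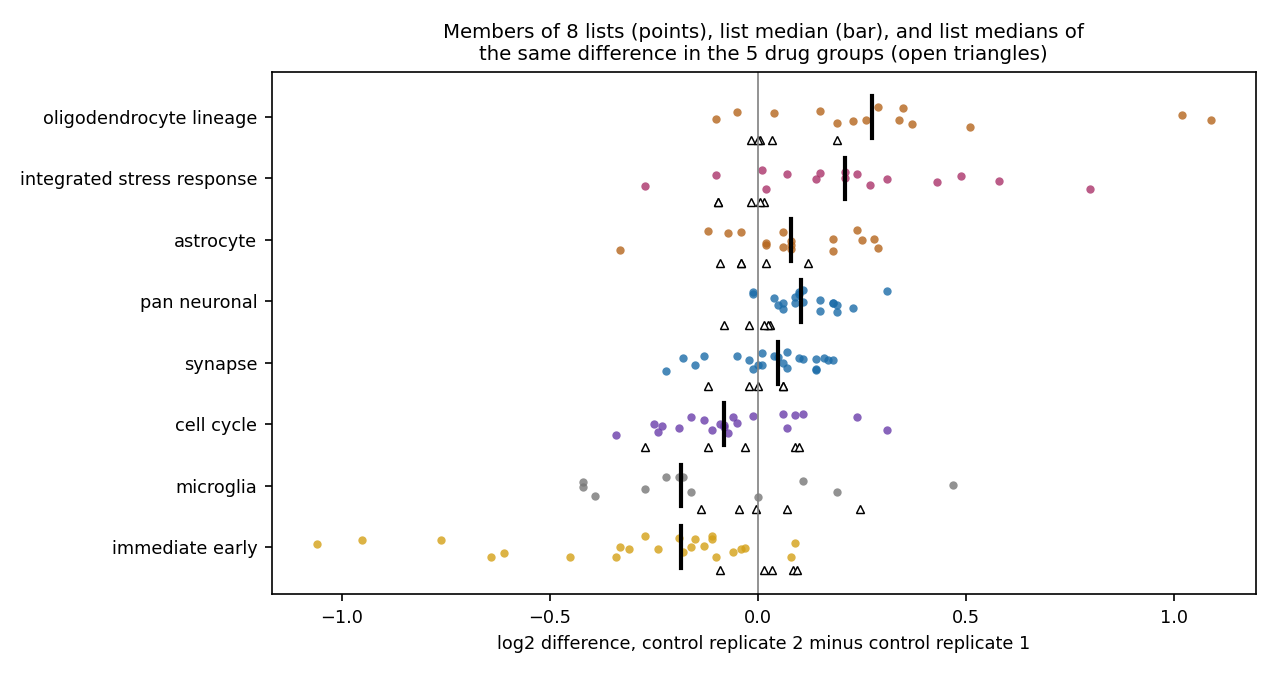
Log2 difference of control replicate 2 minus replicate 1 (x axis) for the tested members of 8 lists (points), the list median (black bar) and the median of the same difference in each of the 5 drug pairs (open triangles). The immediate early median lies at −0.185 and the oligodendrocyte median at 0.275, both outside the triangles.

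Immediate early genes, transcribed within minutes when neurons fire or receive growth factors, were lower on replicate 2 in 22 of 24 cases, against 39.5% of all tested genes. None passed singly, and 8 had an unadjusted p under 0.05 by limma, against 3.15% of all tested genes. The median difference of the list was −0.185, where the other 5 pairs ran from −0.09 to 0.095. The activity-dependent factor Npas4 read 8.35 and 7.29, Fos 8.45 and 7.50, Fosb 7.69 and 6.93, Junb 8.37 and 7.73 and Nr4a1 9.56 and 8.95, and these 5 differed by at least 0.5. Egr3 (8.07 and 8.15) and Klf4 (7.12 and 7.21) ran the other way. Arc, which acts at synapses, read 8.10 and 7.99. Replicate 1 stood above all 10 drug arrays for 12 of the 24 genes, against 11.8% of all genes, and replicate 2 for 3, against 11.0%. For Fos the highest drug array read 8.43 and for Fosb 7.37, both under replicate 1, whereas Npas4 reached 8.64 on a drug array.

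Promoters are shown for the members of largest difference, since CREB, a factor that neuronal activity switches on, binds the sequence TGACG. Each window is 300 bases around the start site in the RefSeq table for GRCm38.p6, written on the gene's strand. Capitals mark TGACG on either strand, where the reverse reads CGTCA.
Npas4: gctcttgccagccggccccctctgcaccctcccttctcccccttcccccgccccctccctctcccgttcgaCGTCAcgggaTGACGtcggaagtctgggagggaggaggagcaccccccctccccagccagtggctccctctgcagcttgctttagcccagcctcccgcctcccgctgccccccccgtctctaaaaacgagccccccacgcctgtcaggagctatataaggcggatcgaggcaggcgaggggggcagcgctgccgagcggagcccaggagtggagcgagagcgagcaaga
Fos: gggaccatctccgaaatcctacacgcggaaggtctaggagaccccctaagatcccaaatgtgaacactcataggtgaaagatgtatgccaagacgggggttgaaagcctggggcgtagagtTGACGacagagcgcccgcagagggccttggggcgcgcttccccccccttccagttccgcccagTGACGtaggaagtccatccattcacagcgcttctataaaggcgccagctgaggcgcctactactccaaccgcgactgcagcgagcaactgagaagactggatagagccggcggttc
Fosb: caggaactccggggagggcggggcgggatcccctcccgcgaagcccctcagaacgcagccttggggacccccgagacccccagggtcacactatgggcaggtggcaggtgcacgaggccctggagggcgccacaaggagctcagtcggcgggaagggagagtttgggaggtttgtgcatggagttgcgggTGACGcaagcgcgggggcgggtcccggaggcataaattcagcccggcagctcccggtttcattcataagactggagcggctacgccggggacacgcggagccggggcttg
They lie at chr19:4989922-4990221 (minus strand), chr12:85473640-85473939 (plus strand) and chr7:19309996-19310295 (minus strand). Npas4 and Fos hold 2 copies each and Fosb 1. Promoters of 1 chromosome were left out of the counts, so a member without one here may have a promoter that was not read. Of the 24 members, 19 have a promoter among those read, with 25 promoters among them. Of these promoters 20 hold TGACG, against 20.8% of the 32851 read, and 2, of Btg2 and Dusp1, hold the full TGACGTCA, against 1.79%. A match describes letters in a window and not a bound site.

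The oligodendrocyte lineage ran the opposite way, with 12 of 14 tested genes higher on replicate 2, against 57.9% of all genes. Their median difference was 0.275, and the other pairs' medians ran from −0.015 to 0.19. By limma 6 genes had an unadjusted p under 0.05, against 3.15% of all tested genes, while 0 passed the adjusted test. Gpr17 (7.25 and 8.34), Pdgfra (8.88 and 9.90) and Olig2 (9.69 and 10.20) differed by at least 0.5, and Olig1 read 10.52 and 10.89. These 4 are active in precursors. Genes of myelinating cells were mixed: Mog (6.47 and 6.76), Mobp (6.43 and 6.69) and Ugt8a (7.45 and 7.68) were higher on replicate 2 as well, Cnp read 7.36 and 7.51, Mbp 7.41 and 7.45, and Myrf 7.07 and 6.97. Other arrays spanned the same range: Gpr17 read 8.60 and 8.52 on the duloxetine arrays and 7.13 to 7.57 on the other 8, and Pdgfra ran from 7.82 to 9.91 over the 10 drug arrays.

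Genes of the integrated stress response were higher on replicate 2 in 14 of 16 cases, against 57.9% of all tested genes. Their median difference was 0.21, with other pairs between −0.095 and 0.015. None passed singly and 4 had an unadjusted p under 0.05 by limma, against 3.15% of all tested genes. The cystine carrier Slc7a11 read 9.78 and 10.58, Sesn2, which restrains growth signalling, 9.69 and 10.27, the stress regulator Nupr1 7.55 and 8.04 and the glutathione-degrading enzyme Chac1 9.97 and 10.40. Atf4 itself read 9.40 and 9.54, and Ddit3 (9.63 and 9.53) and Stc2 (8.26 and 7.99) were lower on replicate 2. Replicate 1 was below all 10 drug arrays for 6 of the 16, against 9.7% of all genes, and replicate 2 for 0, against 3.93%. The promoters of Slc7a11 and Nupr1 are printed for their matches to TGATGNAA, the core of the element that ATF4 binds; capitals mark it on either strand.
Slc7a11: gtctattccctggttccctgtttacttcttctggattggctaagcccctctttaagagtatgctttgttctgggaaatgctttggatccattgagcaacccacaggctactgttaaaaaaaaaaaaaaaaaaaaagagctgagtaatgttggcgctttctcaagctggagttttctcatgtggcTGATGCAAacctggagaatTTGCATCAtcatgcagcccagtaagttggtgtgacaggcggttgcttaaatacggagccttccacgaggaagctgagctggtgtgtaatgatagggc
Nupr1: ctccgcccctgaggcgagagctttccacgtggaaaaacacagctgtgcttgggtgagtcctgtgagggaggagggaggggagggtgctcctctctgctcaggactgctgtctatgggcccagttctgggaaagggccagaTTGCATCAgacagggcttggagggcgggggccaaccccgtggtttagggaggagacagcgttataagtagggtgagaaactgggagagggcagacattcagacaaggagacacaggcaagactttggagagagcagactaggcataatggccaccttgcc
They lie at chr3:50443564-50443863 and chr7:126625421-126625720, both on the minus strand. Slc7a11 holds 2 matches, facing each other, and Nupr1 holds 1. The 16 members have 18 promoters among those read, and 7 of these hold the sequence, against 3.97% of the 32851 promoters read: those of Asns, Atf3, Chac1, Nupr1, Slc7a11, Trib3 and Vldlr. The promoter of Sesn2, a member with a difference of 0.58, holds no match.

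In 5 further lists of the 31 the median difference of the control pair also lay outside those of the 5 drug pairs, as did the median over all genes (0.03, other pairs −0.03 to 0.02). In every list some pair is lowest and some pair highest, so any pair would lie outside the others in part of the lists. Whether control did so more often than another pair would was not tested. Of all tested genes 57.9% were higher on replicate 2 and 39.5% lower. Pan-neuronal genes were higher on replicate 2 in 18 of 20 cases (median 0.105, other pairs −0.08 to 0.03), transmitter carriers in 9 of 12 (0.135, other pairs −0.11 to 0.095), nutrient carriers in 11 of 15 (0.09, other pairs −0.18 to 0.05) and striatal genes in 6 of 10 (0.085, other pairs −0.1 to 0.065). The striatal count lay near the share of all tested genes. The nutrient list shares Slc7a11 with the stress response list. Microglia genes were lower on replicate 2 in 8 of 12 (median −0.185, other pairs −0.135 to 0.245). Among the microglia genes, Cd68 (8.52 and 8.10), C1qb (8.21 and 7.82) and Aif1 (7.03 and 6.61) were lower, and Tmem119, a marker of resident microglia, ran the other way (6.24 and 6.71). Synaptic genes (15 of 23 higher, median 0.05) and cell cycle genes (15 of 21 lower, median −0.08) stayed within the range of the other pairs. No member of these lists passed the adjusted test.

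Set against the mean of the 5 drug groups, 9 genes differed in control (limma, adjusted p under 0.05 over 17467 genes; 0.0515% of those tested), 4 higher (0.0229%) and 5 lower (0.0286%). Drugs and doses differ, and the mean weights them equally. Of the higher genes, the neurokinin B receptor Tacr3 read 8.31 and 8.14 in control and 6.48 to 7.83 on the drug arrays (0.83 ± 0.10 SE, adjusted p = 0.0345). The Notch target Hes5 read 9.72 and 9.76 against 8.57 to 9.73, Tmem100, a gene of BMP signalling, 6.72 and 6.89 against 5.69 to 6.45, and the water channel of astrocytes Aqp4 8.71 and 8.64 against 7.39 to 8.71. Tacr3 and Tmem100 did not overlap with any drug array, while 1 duloxetine array lay inside the control range for both Hes5 and Aqp4. Lpl (10.22 and 9.96) and the neuropeptide Cck (10.97 and 10.88) came next without passing (both adjusted p = 0.0532 by limma).

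The 5 lower genes include an inflammatory and an oxidative stress enzyme. Ptgs2, the inducible prostaglandin synthase, was 1.58 log2 units lower in control (7.45 and 8.11 against 7.16 to 10.36 on drug arrays, adjusted p = 0.0345 by limma). The secreted peptide gene Ostn (5.62 and 6.18 against 5.83 to 7.45), the heme-degrading enzyme gene Hmox1 (9.02 and 9.48 against 9.22 to 10.62), the phospholipase gene Pla2g2e (7.60 and 7.84 against 7.94 to 8.67) and the survival gene Ier3 (8.43 and 8.46 against 8.21 to 9.47) also passed. For Ptgs2, Ostn, Hmox1 and Ier3 the 8 arrays of the other drugs were above both control arrays, whereas the 2 duloxetine arrays were not. Pla2g2e was higher on all 10. Leaving out an array moved the count of 9 between 0 (without control replicate 1, or without any 1 array of amitriptyline, citalopram or imipramine) and 243 (without duloxetine replicate 1); it was 46 without control replicate 2, 72 without duloxetine replicate 2, and 1 and 3 without mirtazapine replicates 1 and 2.

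**Figure D5:**
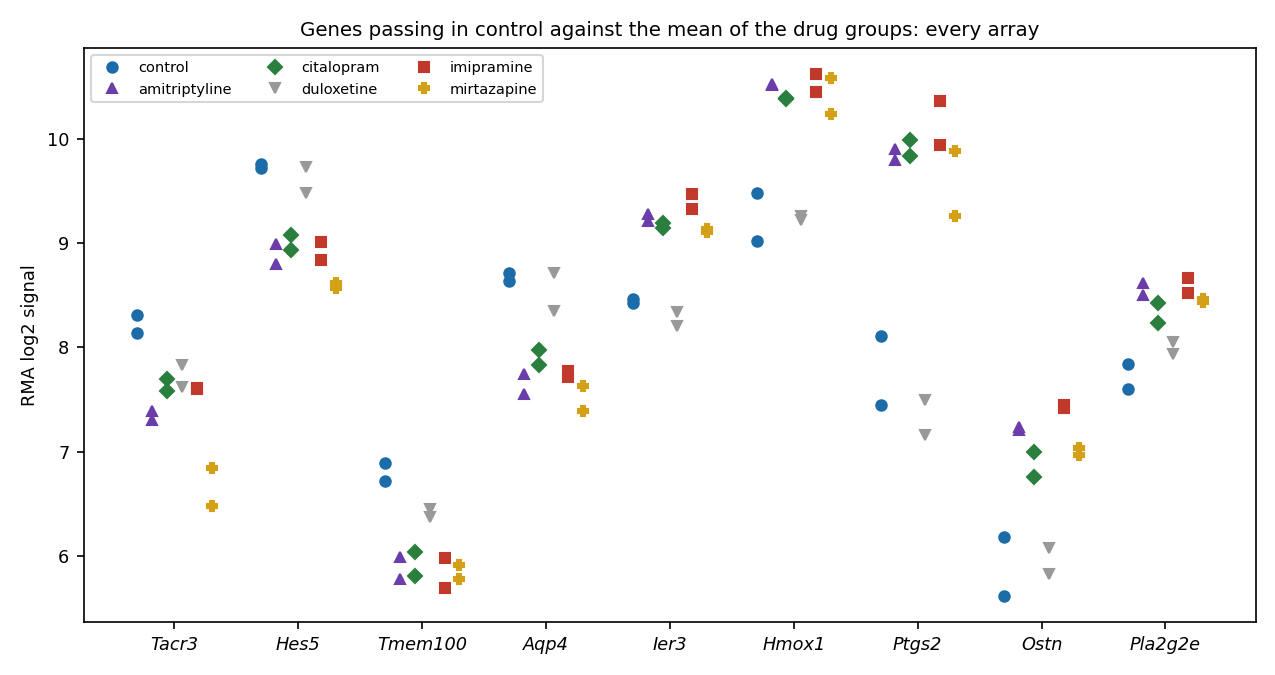
RMA log2 signal (y axis) of the 9 genes that passed in control against the mean of the drug groups, on every array, 2 points per group. Control (blue circles) and duloxetine (grey triangles) lie close together for Ier3, Hmox1, Ptgs2 and Ostn, and the 8 arrays of the other drugs lie above them.

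In the same comparison, 9543 of all 17467 genes had a positive difference, and several lists leaned further to one side with few or no members passing singly. Cell cycle genes had a positive difference, higher in control, in 19 of 21 cases with a median of 0.466, against a median of 0.015 over all genes; 0 passed the adjusted test and 15 had an unadjusted p under 0.05, against 8.93% of all genes. Both control arrays stood above all 10 drug arrays for 8 of the 21, against 3.67% of all genes. Top2a read 8.45 and 8.26 in control and 7.21 to 8.39 on drug arrays, and Cdk1 8.71 and 8.47 against 7.54 to 8.34. Astrocyte genes had a positive difference in 15 of 17 cases (median 0.223, 1 called, Aqp4), and radial glia genes in 15 of 19 (median 0.096, 1 called, Hes5). Excitatory genes did so in 15 of 19 (median 0.126, 0 called, 7 with an unadjusted p under 0.05), and both control arrays stood above all 10 drug arrays for 5 of them: Slc17a6, Neurod6, Fezf2, Sox5 and Tle4. Oligodendrocyte lineage genes did so in 11 of 14 (median 0.151, 0 called). Integrated stress response genes had a negative difference in 15 of 16 (median −0.205, 0 called) and GABAergic genes in 16 of 18 (median −0.20, 0 called), among them Gad2, whose 8.64 on control replicate 1 lay below all drug arrays and whose 9.00 on replicate 2 lay among them (8.87 to 9.68). Both control arrays lay below all 10 drug arrays for 2 of the 18 GABAergic genes, against 1.06% of all genes: the interneuron factor Lhx6 (8.99 and 9.16 against 9.20 to 9.39) and Erbb4 (9.96 and 10.10 against 10.12 to 10.59). For 1 of the 18 they lay above all 10, against 3.67% of all genes. Pan-neuronal and synaptic genes had medians of 0.02 and −0.002, near that of all genes.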

How the data were processed

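RNA (100 ng total per sample) was hybridised to whole-transcript Affymetrix arrays. The deposited values are log2 signals made by the authors with Affymetrix Expression Console and RMA, per the submitters' processing notes. Neither their versions and settings nor the genome build were found in the labels. Quantile normalization within RMA gives all arrays nearly the same distribution. The scale holds no read depth, and 2 arrays per group limit the precision.

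GEO's platform annotation named the probe sets (23521 with 1 symbol, 1814 with several, 16010 with none). Of the genes, 99.2% matched the gene table by gene number. The members and 31 gene lists (495 genes, 447 measured, 48 not analysed here) were chosen with earlier results of these data known. Levels and ranks were described without a test. Named were up to 6 members of highest and 3 of lowest control mean per list, the 20 genes of highest signal, the 10 genes of lowest p in each direction of the control pair, 6 in each direction against the drugs, a set of drug target and marker genes, and 8 Mir genes; some further members were named for their role or after their values were seen.

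Tests used limma 3.58.1 (lmFit, then eBayes with no trend, in R 4.3.3) on genes with a mean of 5.72 or more, the 30th percentile over all probe sets, with 5 residual degrees of freedom for the control pair, each control array being assumed to vary like the drug replicates, and 6 for control against the drugs. P-values, two-sided, were adjusted by Benjamini-Hochberg and called under 0.05. Both fits were tested on simulated data: for control against the mean of the drugs, 55.2% of genes changed by 0.5 and 89.6% of those changed by 1 were recovered. Alternatives were another reference, filter, probe set rule, prior, a second quantile normalization, a replicate block, and leaving out arrays, among them duloxetine replicate 2 with mirtazapine replicate 2.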

Additional observations from a re-analysis of the deposited data

How the results depend on the processing

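The count of genes above the reference signal ran from 10547 to 16010 (main 13941), the median level from 7.19 to 7.25 and the SD of the control difference from 0.167 to 0.211, all within 1.5 times of the values reported. Of single lists, 27 counts above the reference moved by more than that and 190 did not, and 28 list medians moved by more than the spread between the arrays while 96 did not. The 295 genes that differed by at least 0.5 between the control arrays became 710 with no filter and 159 with the 50th percentile filter. At the reference's 99th percentile 5 of 14 serotonin receptors, 3 of 13 microglia genes and 0 of 12 endothelial genes exceeded it, and at the 90th 12 microglia and 7 endothelial genes did. The 1 call between the control arrays became 0 with no filter, with the 50th percentile filter and with a trended, robust prior, and ranged from 0 to 1 over the fits that left out 1 drug array; no control array can be left out of this difference. The 9 calls of control against the drugs became 0 with no filter, 62 with the 50th percentile filter, 50 with the trended prior, 25 after a second quantile normalization (12 higher, 13 lower) and 206 without duloxetine replicate 2 and mirtazapine replicate 2, and ranged from 0 to 243 when 1 array was left out; the cause was not tested. With the replicate number as a block, the control pair had 0 calls and control against the drugs had 1. Replicate numbers did not pair the samples across all groups: over 15 pairs of groups the correlation of same-numbered deviations ran from −0.438 to 0.712, and 4 exceeded 0.1. The value of 0.712 was that of duloxetine with mirtazapine, the groups whose replicates differed most.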

Other observations

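Some reference genes gave signal that their family does not. Vmn1r233, a vomeronasal receptor gene, had a mean control signal of 11.275 and Olfr1360 one of 9.11, where the median of the 1394 reference genes was 4.30. Their transcripts were not checked in any other way.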
